A study of Drosophila melanogaster with 4 samples.

Results

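Of the 4389 places called as bound by Abd-B-GFP in third-instar larvae of Drosophila melanogaster, 1048 lie on the right arm of chromosome 3, called 3R, which is 23.9% of the list (exact 95% binomial interval 22.6 to 25.2%). All peaks whose sequence name is 3R were taken, whatever their strength, so no measured value chose among them. The arm itself was chosen with earlier results of these data known. The 13 peaks on 3RHet, separate heterochromatic sequence of the same arm, are described apart. Chromatin immunoprecipitation followed by sequencing (ChIP-seq) gave 2 libraries of immunoprecipitated DNA, made with a rabbit polyclonal antibody against GFP, and 2 libraries of input DNA. All 4 libraries are labelled with the stock Abd-B-GFP, of genotype w; PBac{y[+]-attP-3B}VK00037, which carries Abd-B as a genomic transgene with GFP at the place of its stop codon, at stage L3, with the sex given as unknown. All 4 titles also carry the label W3L. The input comes from the same stock, so the design has no larvae without the tagged protein. The protocol text names another stock, y; bw cn sp, and no value used here checks which larvae were taken. All positions are in Drosophila genome release 5, and no gene annotation or genome sequence of that release was used, so peaks are given by position and no bases are printed.

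Abd-B is a homeodomain transcription factor and the most posterior of the Hox proteins of the fly, which give segments along the body axis their identity. It acts in the posterior abdomen, where it sets segment identity and takes part in forming the genitalia. The Hox genes of the fly stand in a pair of complexes, both on 3R. The Antennapedia complex holds lab, pb, Dfd, Scr and Antp, which act in the head and thorax, and the bithorax complex holds Ubx, abd-A and Abd-B itself, which act in the thorax and abdomen. The table of RefSeq genes lists the 8 in this order along 3R, with lab nearest the centromere. A whole larva mixes posterior cells that make Abd-B with many others that do not, so a peak averages over both. Fewer bound cells and weaker binding per cell cannot be told apart in such a sample.

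The 3R peaks ran from position 319 to 27893820, a span of 27.9 Mb, at 37.6 peaks per Mb (exact Poisson 95% interval 35.3 to 39.9). Intervals of this kind count peaks as independent and cover counting error only. They are too narrow for the count of a stretch, since bins of 1 Mb on 3R spread more than that error (mean 37.15, SD 13.96). They do not include error between libraries, since the list keeps no library apart and the depth of each is unknown. Together the 3R peaks covered 553 kb, or 1.98% of the span, against 2.34% on 2R, 1.85% on X, 1.67% on 3L and 1.46% on 2L. The narrowest 3R peak was 201 bp wide, the median peak 416 bp and the widest 2766 bp, and the upper quartile was 666 bp. The score of a peak is the value that the peak caller gave it, as the authors deposited it, and the file does not define it. It serves here only to rank and describe peaks within this list. Scores on 3R began at 6.20, had their median at 14.19 and their upper quartile at 25.3, and ended at 254.32, so most peaks stood near the low end of the scale and a few far above it. A score above 100 was reached by 28 of the 1048 peaks (2.67%, exact binomial 95% interval 1.78 to 3.84%). The interval overlapped that of every other major arm, where the shares were 5.06% for X (3.53 to 7.0%), 2.51% for 2R, 2.40% for 3L and 2.34% for 2L.

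Binding was spread very unevenly along 3R. In the 27 full bins of 1 Mb the lowest number of peaks was 16, the median 34 and the highest 69, around a mean of 37.1 ± 14.0 (SD over bins). Relative to its mean, this spread (0.376) was above that of 2L, 2R and 3L, which lay between 0.314 and 0.338, and below that of X (0.514), with no test of the difference. The 4 fullest bins held 260 peaks, or 24.8% of the arm. These were the 15th bin, from 14000001 to 15000000, with 69 peaks, the first with 67, the 13th, from 12000001 to 13000000, with 65, and the sixth, from 5000001 to 6000000, with 59. The bin with the fewest, from 15000001 to 16000000, followed directly on the one with the most and held 16.

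The full bins were full in different ways. In the 15th bin the fullest window of 100 kb held 15 of the 69 peaks, and the 54 outside it alone exceeded the total of all but 3 of the other full bins. In the 13th bin a single window of 100 kb, from 12000001 to 12100000, held 25 of the 65 peaks, the most of the fullest windows in the 28 bins of the arm. In the sixth bin the window from 5700001 to 5800000 held 21 of 59. Without its fullest window the median bin held 24 peaks. Fuller bins did not hold peaks of higher typical score: over the 27 bins, the number of peaks and their median score had a Spearman correlation of -0.156, given as a description because bins share the same libraries and neighbouring bins may not be independent. The first, sixth and 15th bins had medians of 13.29, 13.30 and 12.41, all below the median of the arm, and the 13th had 15.94. Peaks with a score above 100 were thinly spread, with 3 at most in any bin and none in 12 of the 27 full bins.

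**Figure D1:**
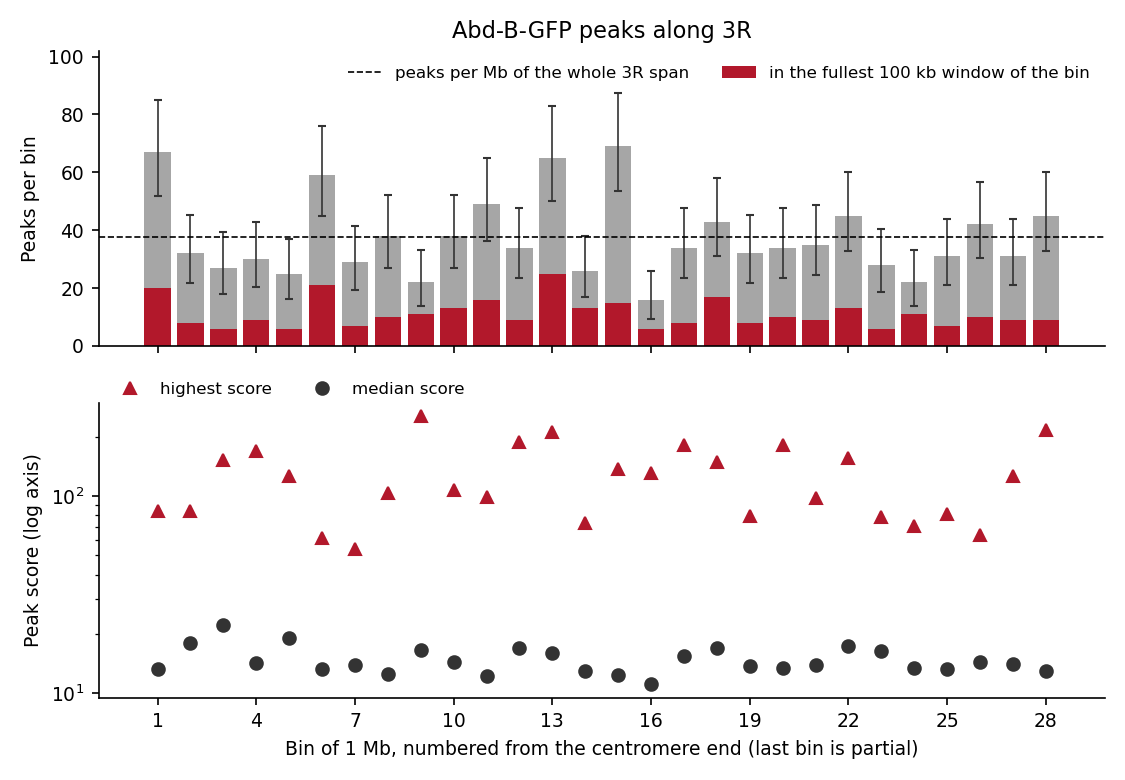
Upper panel: peaks per bin of 1 Mb along 3R with exact Poisson 95% intervals, the part in the fullest 100 kb window of each bin in red, and the density of the whole span (37.6 per Mb) as a dashed line. Lower panel: highest and median score per bin on a log axis; the counts vary from 16 to 69 in full bins while the medians stay between 11.11 and 22.10.

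On a finer grid of 50 kb windows, 64 of the 558 windows of 3R held 5 or more peaks (11.5%, exact binomial 95% interval 8.95 to 14.4%), and these held 439 peaks, or 41.9% of the arm. At the other end 199 windows (35.7%, 31.7 to 39.8%) held no peak. The share of such crowded windows was 13.5% on 2R, 8.96% on 3L, 7.80% on X and 6.52% on 2L, and the interval for 3R overlapped those of 2R, 3L and X and, at its lower end, that of 2L. The median gap between neighbouring 3R peaks was 9887 bp, against a mean gap of 26113 bp, a ratio of 0.379 that lay within the range of the other major arms (0.31 to 0.40). Gaps under 1 kb made up 17.7% of the gaps, and the smallest was 50 bp. By this ratio the peaks of 3R were neither the most nor the least grouped among the major arms.

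The longest stretch without a peak on 3R ran for 383 kb between the peak that ended at 23773613 and the one that began at 24156725. Both of these flanking peaks were weak, with scores of 11.78 and 11.38. The next, of 317 kb, ran from 11301803 to 11619208, and a strong peak stood at its far edge, 1319 bp wide with a score of 130.81. A stretch of 310 kb lay between 13637045 and 13947172, and one of 305 kb between 6712758 and 7017531. The fifth, of 288 kb between 2300463 and 2588087, reached into the Antennapedia complex. In all, 56 gaps longer than 100 kb added up to 10.4 Mb, or 37.1% of the span. That share was 31.2% on 2R, 39.2% on 3L, 48.5% on 2L and 51.2% on X, and the longest single gap of 3R was shorter than those of 2L (631965 bp), X (525883 bp) and 3L (435535 bp) and longer than that of 2R (283330 bp).

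The strongest peak of 3R, at 8889555 to 8890386, had a score of 254.32 but was only 832 bp wide, which ranked it 165th of the arm by width. It was followed by a stretch of 147740 bp without a peak on one side, and a weak peak (score 9.44) stood 1211 bp away on the other. The second, at 27283501 to 27284884, had a score of 217.06 and a weak neighbour (9.25) 390 bp away. The third, in the bithorax complex from 12758120 to 12760885, scored 210.10 and was also the widest peak of the arm, at 2766 bp. Its neighbours on both sides, at 960 and 1001 bp, had scores of 8.71 and 9.09. All 3 peaks thus had a much weaker companion within 1211 bp.

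The ranks from the fourth to the tenth were held by peaks of mixed surroundings. At 8537760 to 8539222 a peak scored 191.27 and stood 6070 bp from its nearest neighbour, and the one at 11925064 to 11926226 had 187.09 and a neighbour at 686 bp. The peaks at 19606564 to 19607964 and at 16603801 to 16604705 had nearly equal scores, 181.60 and 181.58. The first of these stood 63874 bp from its nearest neighbour, the most isolated of the 10, and the other had one at 968 bp. Next came 169.96 for the peak at 3711229 to 3712799 and 155.51 for the one at 21090803 to 21092089. The tenth, which scored 153.16 at 2645775 to 2646651, belonged to the Antennapedia complex. Among the 28 peaks with a score above 100, 15 (53.6%, exact binomial 95% interval 33.9 to 72.5%) had a neighbour less than 2 kb away, against 415 of the 1020 other peaks (40.7%, 37.7 to 43.8%), and the intervals overlapped. Those 15 neighbours had a median score of 17.45, the lowest at 8.71 and the highest at 153.16. In 1 pair both peaks scored above 100, and it lay in the Antennapedia complex. The median distance from one peak above 100 to the next was 619 kb, although some stood close together, such as those at 16603801 to 16604705 and at 16608285 to 16610996, which shared a chain of 4. The longest part of the arm without one was 4.49 Mb, from 21869081 to 26354352.

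Wide peaks on 3R mostly, but not always, had a score of 20 or more. Over the 1048 peaks the Spearman correlation between width and score was 0.758, a description that carries no test because both values come from the same call. How the caller set widths was not examined. The 210 lowest scoring peaks had a median width of 256 bp, and the 210 highest scoring ones had 832 bp. Of the 98 peaks at least 1000 bp wide, 7 had a score under 20, and of the 309 peaks under 300 bp, 1 had a score above 30. The 10 widest held strong peaks and much weaker ones. The peak in the bithorax complex (2766 bp), the one at 16608285 to 16610996 (2712 bp, score 145.63) and the one at 14069106 to 14071095 (1990 bp, score 136.55) were also among the 13 strongest. In contrast, the peak at 12060750 to 12063514 was nearly as wide as the widest, at 2765 bp, with a score of 36.08. The peaks at 12883183 to 12885925 (2743 bp) and at 10564575 to 10566720 (2146 bp) had scores of 51.85 and 51.71, and each had a neighbour less than 500 bp away. The remaining 4, at 21831335 to 21833189, 24716916 to 24718703, 4159129 to 4160900 and 10195257 to 10196945, were 1855, 1788, 1772 and 1689 bp wide with scores of 29.45, 29.71, 64.56 and 26.53. Of all 10, the peak at 4159129 alone stood free, 13970 bp from its nearest neighbour, and the other 9 had a neighbour within 1346 bp.

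**Figure D2:**
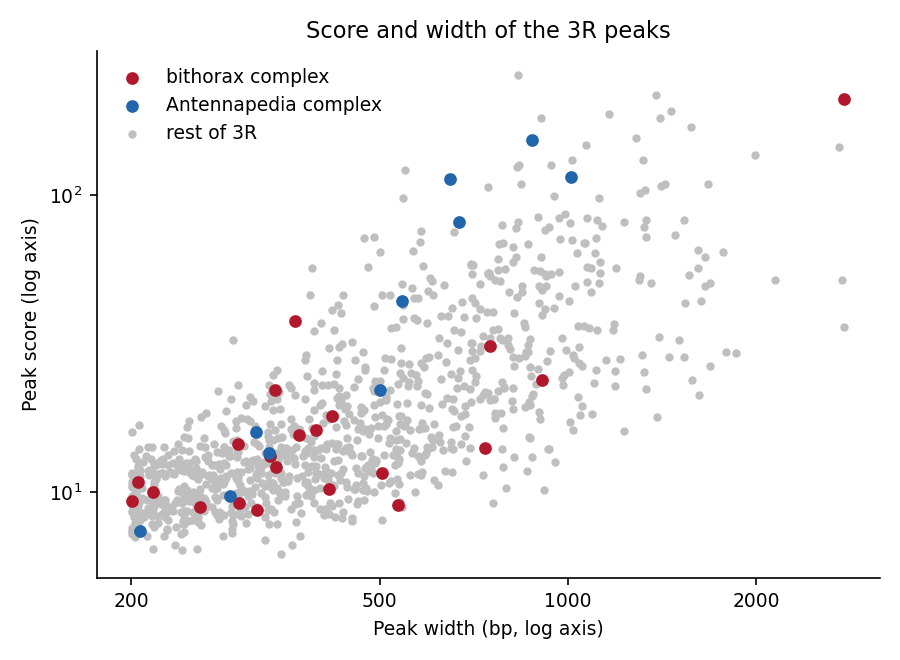
Width (bp) and score of each of the 1048 peaks of 3R, both on log axes, with the 21 peaks of the bithorax complex in red, the 10 of the Antennapedia complex in blue and the rest in grey. Score rises with width; the bithorax peak at the far right (2766 bp, score 210.10) is the widest of the arm, and the strong Antennapedia peaks are narrower, at 647 to 1011 bp above a score of 100.

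Chains of close peaks were traced as runs of neighbours with no gap above 5 kb. By this rule 456 peaks of 3R (43.5%) stood alone, 428 belonged to chains of 2 to 4 and 164 (15.6%) belonged to 24 chains of 5 or more. Peaks in the long chains were not stronger than single ones: the median score was 12.80 in chains of 5 or more, 14.09 in chains of 2 to 4 and 14.84 in single peaks. A score above 100 was reached by 3 of 164, 14 of 428 and 11 of 456 of them (1.83%, 3.27% and 2.41%), with overlapping exact binomial 95% intervals of 0.379 to 5.25%, 1.80 to 5.43% and 1.21 to 4.28%. Chains of 8 or more peaks numbered 6 on 3R, while 2R had 7, 3L and X had 2 each and 2L had 1. Against the 24 chains of 5 or more on 3R, 2R had 22, 3L 21, X 12 and 2L 9, so the contrast with 3L depended on the limit. The longest chain of X had 18 peaks, against 15 on 3R. These counts are not scaled to the length of the arms.

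The 6 long chains differed in build. The one nearest the centromere, at 881636 to 892848, packed 9 narrow peaks into 11.2 kb, none wider than 539 bp and none with a score above 15.11. The chain at 7275384 to 7284366 was the most compact, with 8 peaks in 8.98 kb, and a single peak of 1126 bp at 7277718 to 7278843 rose to 59.77 where the next highest had 12.84. The longest, at 12050187 to 12081083, held 15 peaks over 30.9 kb that covered 37.4% of it. Its strength was shared out: its median score, 21.44, was the highest of the 6 chains, yet its highest was 61.95. At 12879851 to 12893034, 8 peaks covered 51.2% of 13.2 kb, and the second of them, at 12881865 to 12882692, had the highest score of all 6 chains, 124.54. The chain at 13525414 to 13544146, with 12 peaks in 18.7 kb, had a strong wide peak near each end. Its scores reached 73.31 at 13542313 to 13543797 and 62.10 as the second highest, around a median of 14.66. In the last, at 14258677 to 14276275, 9 peaks covered 25.7% of 17.6 kb and the highest score was 101.47. Of the 6, 4 lay between 12050187 and 14276275, on either side of the bithorax complex but not in it.

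**Figure D3:**
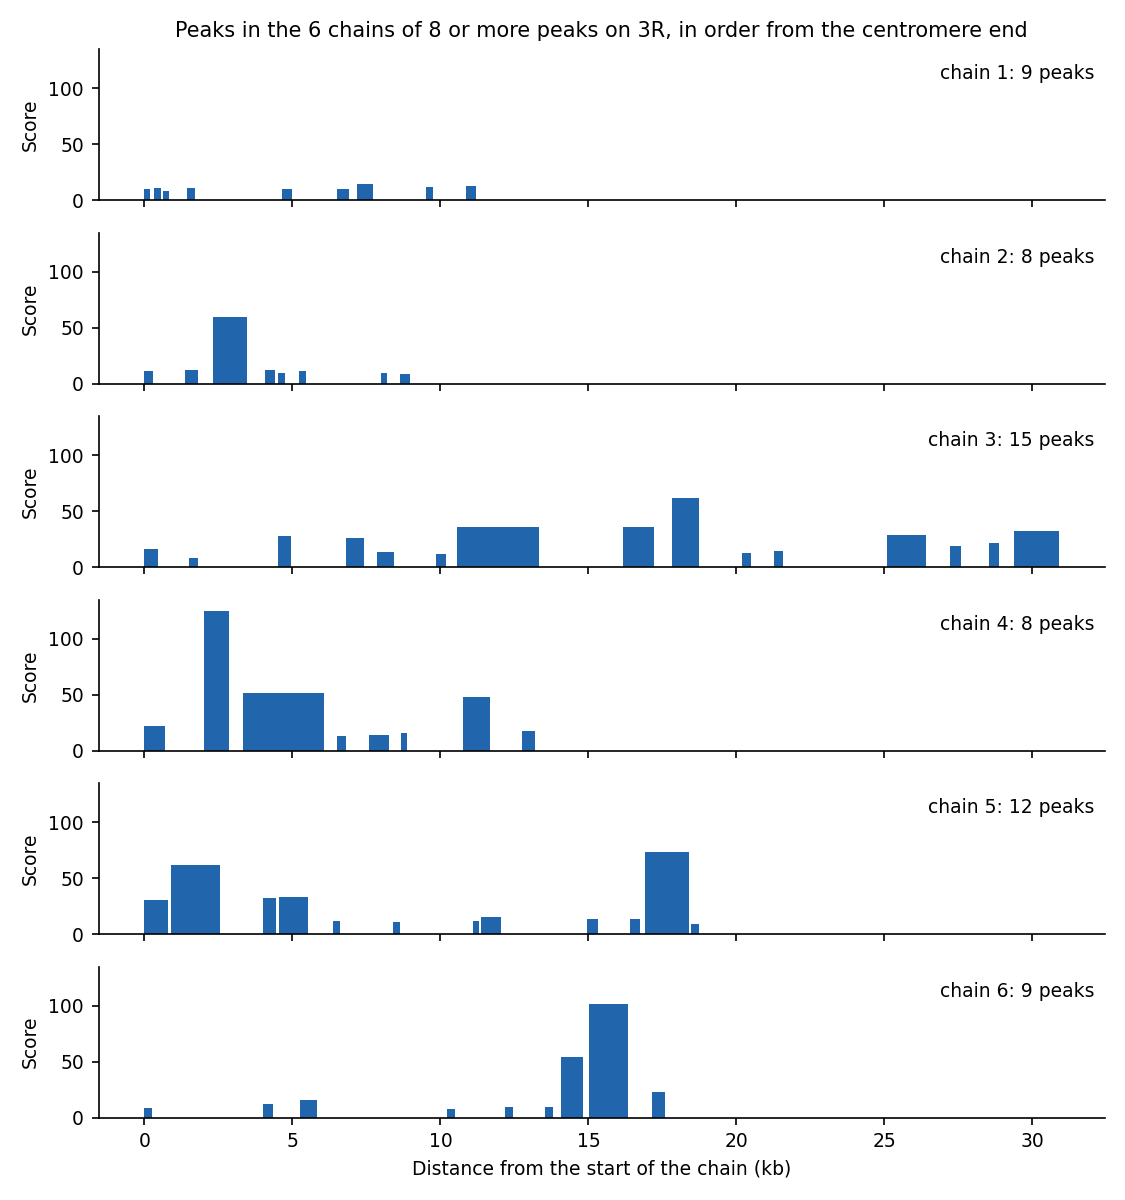
Each panel is one chain of 8 or more peaks on 3R, with distance from its start (kb) along the horizontal axis; each bar is a peak, as wide as the peak, with its score as height. The first chain has no score above 15.11, whereas the fourth and sixth reach 124.54 and 101.47.

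The 5 fullest windows of 50 kb repeated only part of this picture. The windows from 5750001 to 5800000 and from 12050001 to 12100000 each held 16 peaks, with median scores of 12.66 and 23.93. The window from 850001 to 900000 held 15 peaks, and its scores reached 19.62 at most. Between 17400001 and 17450000 there were 13 peaks, of which 3 had a score above 50, up to 147.97 at 17405207 to 17406276. The window from 13500001 to 13550000 held 12, all of them in 1 chain. The first and the fourth of these windows contained no chain of 8 or more peaks, their longest being 7 and 5. The next in rank was the window from 12750001 to 12800000 at the Abd-B end of the bithorax complex, with 11.

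Over the 1 Mb nearest the centromere, peaks were denser on 3R than over the rest of the arm. On the other major arms they were sparser there, on 2L within counting error. Coordinates on 3R begin at the centromere end. The first 1 Mb held 67 peaks (exact Poisson 95% interval 51.9 to 85.1), against 36.5 per Mb over the rest of the span, a ratio of 1.84 (exact conditional 95% interval 1.41 to 2.35). The same length at the centromere end held 19 peaks of 2L, 17 of 2R, 7 of 3L and 6 of X, which are 0.669, 0.378, 0.199 and 0.192 times the density of the rest of those arms. The interval for 3R lay above 1 and overlapped none of the others, those of 2R, 3L and X lay below 1, and that of 2L (0.40 to 1.05) included it. The contrast with 2L changed with the length taken. Over 500 kb the ratio of 2L was 0.352 (0.114 to 0.826). Over 2 Mb it was 0.846 (0.617 to 1.14), which overlapped the interval of 3R (1.09 to 1.66). All these intervals count peaks as independent and are too narrow, as bins of 1 Mb on 3R had a mean of 37.15 with an SD of 13.96. Centromere and 3R cannot be told apart here, since each arm has a single such end, and how far the release 5 sequence of each arm reaches towards its centromere was not used. The other end of 3R held 46 peaks in its last 1 Mb (ratio 1.23, 0.898 to 1.66) and 30 in its last 500 kb (ratio 1.61, 1.08 to 2.32), so over 500 kb its ratio was no lower than that of the centromere end (1.45, 0.95 to 2.12). Over 1 Mb the far ends of 3L, 2R and 2L had ratios of 1.75 (1.32 to 2.29), 1.55 (1.19 to 1.99) and 1.54 (1.09 to 2.1). Their intervals overlapped that of the 3R centromere end, and the far end of X had 0.994 (0.665 to 1.43). Inside 3R the bins from 14000001 and from 12000001 held 69 and 65 peaks, so such a count was not particular to the centromere end.

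**Figure D4:**
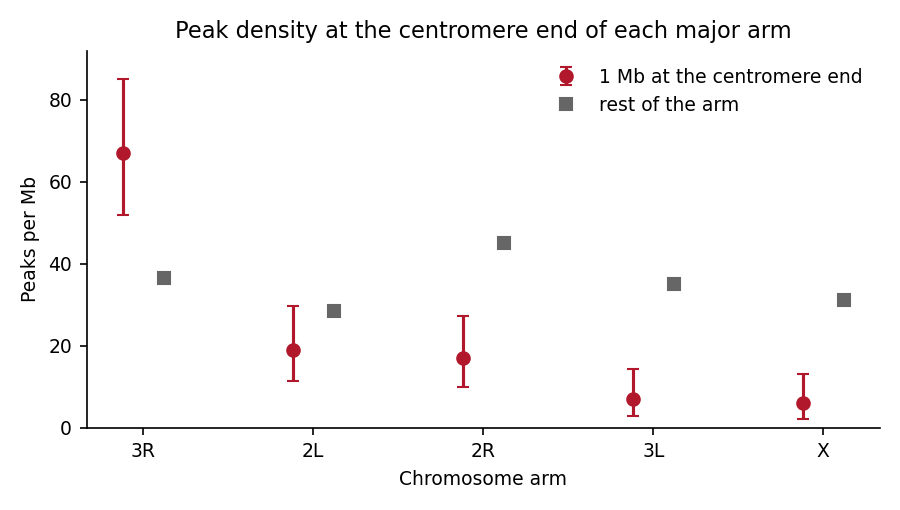
Peaks per Mb in the 1 Mb nearest the centromere (red circles, with exact Poisson 95% intervals) and over the rest of the arm (grey squares) for each major arm. On 3R the centromere end, at 67, lies above the rest of the arm, at 36.5; on the other arms it lies below.

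The peaks of this stretch were numerous, with scores much like those of the rest of the arm. Their median score was 13.29, against 14.24 over the rest of 3R, and none of the 67 had a score above 100, where 28 of the other 981 did. With a share of 2.67% over the whole arm, few such peaks are due among 67, and 12 of the 27 full bins had none. A score above 50 was reached by 10 of them (14.9%, exact binomial 95% interval 7.40 to 25.7%), against 105 of 981 elsewhere (10.7%, 8.84 to 12.8%), with overlapping intervals. The strongest were at 225468 to 226539 with a score of 83.92, at 57973 to 58981 with 80.67 and at 736259 to 737177 with 76.23. The very first peak of the arm, at 319 to 1972, was 1654 bp wide with a score of 49.56. The excess was not even: the window from 800001 to 900000 held 20 of the 67 peaks, among them the chain of 9, while the other windows of 100 kb held 1 to 9. Without that window the ratio was 1.43 (exact conditional 95% interval 1.05 to 1.92). The window was picked as the fullest and the rest of the arm kept its own fullest windows, so this ratio could only fall. With the fullest 100 kb window left out of every bin, the first bin held 47 peaks and the median full bin 24. The first 500 kb alone had a ratio of 1.45, with an interval of 0.95 to 2.12 that included 1. Among peaks with a score of at least 15.46 the interval for the first 1 Mb also included 1 (1.51, 0.967 to 2.26).

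The Hox complexes looked unlike each other: the bithorax complex had one very strong peak among many whose scores were ordinary for the arm, and the Antennapedia complex had an ordinary number of peaks, of which 3 scored above 100. Their limits here are approximate release 5 positions from general knowledge, not from a file: 12.48 to 12.81 Mb for the bithorax complex and 2.48 to 2.83 Mb for the Antennapedia complex. Together they made up 2.44% of the span and held 31 peaks, or 2.96% of those on 3R. The bithorax complex held 21 peaks in 330 kb, or 63.6 per Mb (exact Poisson 95% interval 39.4 to 97.3), against 37.4 per Mb over the arm outside both complexes, a ratio of 1.7 (exact conditional 95% interval 1.05 to 2.62). This interval too counts peaks as independent and is too narrow. The interval included 1 when the limits were moved out by 50 kb (ratio 1.49, 0.952 to 2.23), among peaks with a score of at least 15.46 (1.45) and after peaks less than 1 kb apart were merged (1.58). The Antennapedia complex held 10 in 350 kb, or 28.6 per Mb (13.7 to 52.5), a ratio of 0.765 (0.366 to 1.41) whose interval included 1 and which turned to 1.20 (0.478 to 2.49) among peaks with a score of at least 15.46. Cut into 84 adjoining stretches of 330 kb, the arm had 7 with 21 or more peaks, up to 35, so other parts of 3R were as full as the bithorax complex. Of 79 stretches of 350 kb, 50 held 10 or more peaks, with a median of 11, so the count of the Antennapedia complex was a usual one.

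Within the bithorax complex the peaks crowded towards the Abd-B end. Of 3 stretches of 110 kb, the one at the Ubx end held 2 peaks, the middle one 4 and the one at the Abd-B end 15. Outside the last stretch the density was 0.730 times that of the rest of the arm (exact conditional 95% interval 0.267 to 1.59). That stretch was left out because it was the fullest, while the rest of the arm kept its own full stretches. The ratio could therefore only fall, and its interval does not allow for this choice. The labels give an Abd-B genomic transgene, whose reads would map to the same positions as those of the resident gene. How far the transgene reaches is not given, and its part in the peaks of this end was not tested. The peak of 2766 bp at 12758120 to 12760885 had a score of 210.10, and the second strongest of the complex, at 12695049 to 12695414, had 37.67. The others named by rank, at 12769930 to 12770680, 12774296 to 12775204 and 12708176 to 12708515, had scores of 31.03, 23.88 and 22.10. The widest after the first were 909, 751, 738 and 535 bp, all between it and position 12775204. The median score of the 21 peaks was 13.29, against 14.18 in the rest of 3R, and 12 of them were at or below the median of the arm, about the share that a median sets for any peaks. The longest peak-free part of the complex was 60686 bp, from 12528967 to 12589654, and beyond its last peak came a gap of 90.3 kb, which ended at the chain of 8 peaks at 12879851.

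In the Antennapedia complex 3 of 10 peaks had a score above 100 (exact binomial 95% interval of the share 6.67 to 65.2%), against 24 of 1017 over the arm outside both complexes (2.36%, 1.52 to 3.49%), and 1 of 21 in the bithorax complex (4.76%, 0.12 to 23.8%). The interval of the Antennapedia complex did not overlap that of the rest of the arm, although it rests on 3 peaks and counts them as independent. Those that began at 2645775 and 2647691 were 1039 bp apart, just above the 1 kb limit for merging. Whether they are separate bound places was not tested. The median score of its 10 peaks was 33.05, against 14.18 in the rest of 3R. The strongest were at 2645775 to 2646651 with 153.16, at 2647691 to 2648701 with 115.12, at 2718853 to 2719499 with 113.35, at 2826324 to 2826992 with 81.20 and at 2674178 to 2674719 with 44.01. These same 5 were also its widest, at 877, 1011, 647, 669 and 542 bp. The 3 peaks above 100 stood within 73.7 kb. Among 79 adjoining stretches of 350 kb from the start of the arm, the one with these 3 peaks alone held as many. The edges of these stretches were fixed and can divide other groups. In bins of 1 Mb, those from 11000001, 21000001 and 26000001 also held 3 such peaks. The lab end was the emptiest part. The first 108 kb of the interval held no peak, and the first stretch of 116.7 kb held 1 peak, against 5 and 4 in the next ones towards Antp. The longest gap inside the complex, 87390 bp, ran from 2738933 to 2826324. The peak at its far edge lay just inside the approximate limit of 2.83 Mb, so counting this peak and this gap to the complex rests on that limit.

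**Figure D5:**
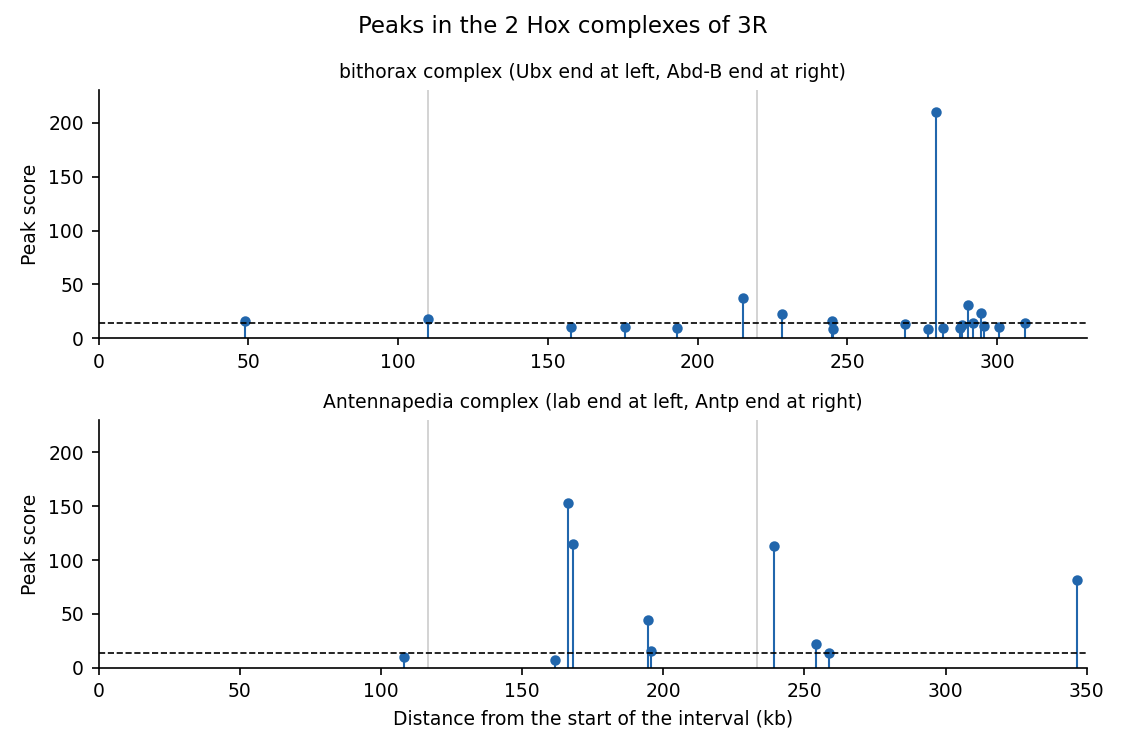
Score of each peak in the bithorax complex (21 peaks, upper panel) and the Antennapedia complex (10 peaks, lower panel) against distance from the start of each interval (kb), with the median score of 3R (14.19) as a dashed line and grey lines that divide each interval into 3 equal stretches. The bithorax peaks gather at the Abd-B end around one peak of 210.10, and 3 Antennapedia peaks stand above 100.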

How the data were processed

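The data are a single list of peaks for the series. Per the file headers it uses release 5 of the FlyBase genome and its peaks come from MACS. The submitters' processing notes name MACS2 and BWA without versions, and CASAVA in versions 1.7.0.2 and 1.7.0.3. How the 2 ChIP and 2 input libraries entered the call, its threshold and any read filter: not given in the sources used here. Besides its limits, each peak carries 1 score, which the authors deposited without a definition. A caller that splits or joins bound regions, and reads placed at repeated sequence, change the number of peaks, and neither could be checked on reads. Depth per library is unknown.

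Gaps, windows by peak midpoint, chains, densities over the span from first to last peak and shares were computed with Python 3.11.15, numpy 2.4.6, pandas 2.3.3 and scipy 1.17.1 and checked on simulated data. Intervals are exact at 95%: Clopper-Pearson for shares, Poisson for counts, conditional for ratios of densities. With 1 list there are no replicates, and no p-value is given. The RefSeq gene table, on release 6, gave gene order only. The arm, the lists and the limits were chosen with earlier results of these data known. Named regions are the 10 strongest and 10 widest peaks, the 5 fullest windows, the 5 longest gaps, chains of 8 or more, the strongest 3 peaks of the first 1 Mb, the 5 strongest and 5 widest of each complex and the extreme bins. Others named were chosen after their values were seen.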

Additional observations from a re-analysis of the deposited data

Results flagged for a closer look

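Signal also appeared on 3RHet, sequence of the same arm that the comparisons along 3R leave out. It held 13 peaks between 55353 and 2474616 of its own coordinates, with a median score of 21.10 and a range from 13.60 to 42.02. Of these, 12 scored above the median of 3R (14.19), and their median width was 415 bp. The strongest was at 1823617 to 1824389. The list has no control values at these positions, and whether the reads map to a single place was not tested.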

How the results depend on the processing

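Of 25 alternatives run, 11 left a value within its interval or within 1.5 times its count, 12 moved it and 2 turned a ratio across 1. The stricter list, limited to scores of at least 15.46, the median of the whole list, kept 2195 peaks by construction, and 470 of them lay on 3R. The median score of 3R (14.19) was the lowest of the major arms, where the others had 14.5 to 16.98. In the stricter list the density was 16.9 peaks per Mb, the share of all peaks 21.4%, the share of crowded windows 1.61% and the number of chains of 8 or more peaks 0, and the ratio of the Antennapedia complex turned to 1.20 (0.478 to 2.49). The cause of that turn was not tested. Merging peaks less than 1 kb apart gave 863 regions, 30.9 per Mb, 6.45% crowded windows and a median score of 15.24, by its construction. The share of 3R among the major arms alone was 25.5%, because the total is smaller. Windows of 20 kb with 2 or more peaks made up 18.4%, and windows of 100 kb with 10 or more made up 6.09%. A limit of 10 kb gave 13 chains, against 6 at 5 kb. The ratio at the centromere end was 1.35 over the first 2 Mb. The ratio of the bithorax complex turned to 0.730 without its fullest stretch of 110 kb. Its interval also included 1 with 50 kb added on each side (1.49, 0.952 to 2.23), in the stricter list (1.45, 0.622 to 2.88) and after merging (1.58, 0.896 to 2.57). The interval at the centromere end included 1 in the stricter list (1.51, 0.967 to 2.26). The fullest 100 kb window and the fullest stretch were left out as alternatives added once the values were known. In both, the rest of the arm kept its own fullest parts, so these ratios could only fall. No paired analysis was possible because 1 list stands for all libraries, which also means that none could be left out. Depth limits the weakest peaks first, but it is unknown.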
